A study of Mus musculus with 12 samples.

Results

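The 3 embryonic globin genes Hbb-bh1, Hbb-y and Hba-x and 5 genes of primitive erythroid cells, Gata1, Klf1, Nfe2, Alas2 and Epor, were followed in cells sorted from mouse embryoid bodies. These 8 genes were chosen by symbol, and all 8 were found among the 18193 genes on the array. They had 12 probe sets, and where a gene had several the one with the highest average was taken to report it. Embryonic stem cells had been differentiated in hanging drops, and embryoid bodies were dissociated on day 6. All cells carried a dsRed reporter for the second heart field, a progenitor pool of the heart, and an eGFP reporter driven by a cardiac-specific enhancer. Cells with both reporters on (double-positive), with dsRed alone (red-only), with eGFP alone (green-only) and with neither (double-negative) were sorted, with 3 arrays each from experiments A, B and C. The double-negative cells are defined only by lacking both reporters, so they may hold many other cell types of the embryoid body. The labels do not say whether the experiments were separate cultures, so the p-values measure only the spread between these arrays, which may be technical.

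Primitive erythroid cells are the first blood cells of the mouse embryo and arise in the yolk sac from mesoderm that also gives rise to endothelium. Hbb-y (epsilon-y) and Hbb-bh1 (beta-h1) encode the embryonic beta-like globins and Hba-x (zeta) the embryonic alpha-like globin, which pair into embryonic hemoglobin. The transcription factors Gata1 and Klf1 bind GATA and CACCC motifs in erythroid promoters, Nfe2 encodes the blood-restricted subunit of NF-E2, Alas2 catalyses the first step of heme synthesis in red cells, and Epor is the erythropoietin receptor. Embryoid bodies are known to form primitive erythroid cells at about the stage sampled here.

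The promoters of 3 of the 4 genes that differed between populations are shown because these genes moved together across the arrays. They are the RefSeq windows (GRCm38.p6) from 250 bases before to 50 bases after the annotated start, written along the gene, and capitals mark matches on either strand to the motifs that are spelled out after the sequences. The Hbb-y window is chr7:103853158-103853457 on the minus strand, that of Hba-x is chr11:32276350-32276649 on the plus strand, and that of Alas2 is chrX:150547167-150547466 on the plus strand.
Hbb-y: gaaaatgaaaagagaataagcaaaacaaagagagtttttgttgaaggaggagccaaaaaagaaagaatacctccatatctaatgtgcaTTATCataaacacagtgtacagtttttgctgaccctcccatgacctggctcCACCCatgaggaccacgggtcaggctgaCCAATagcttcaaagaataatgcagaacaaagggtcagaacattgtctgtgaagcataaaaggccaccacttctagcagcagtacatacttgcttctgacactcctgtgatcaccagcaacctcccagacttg
Hba-x: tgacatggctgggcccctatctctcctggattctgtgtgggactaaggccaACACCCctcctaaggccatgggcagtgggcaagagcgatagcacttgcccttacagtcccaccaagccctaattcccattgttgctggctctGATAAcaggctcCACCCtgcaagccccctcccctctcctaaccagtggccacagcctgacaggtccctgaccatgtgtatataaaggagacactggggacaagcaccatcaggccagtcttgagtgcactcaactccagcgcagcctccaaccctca
Alas2: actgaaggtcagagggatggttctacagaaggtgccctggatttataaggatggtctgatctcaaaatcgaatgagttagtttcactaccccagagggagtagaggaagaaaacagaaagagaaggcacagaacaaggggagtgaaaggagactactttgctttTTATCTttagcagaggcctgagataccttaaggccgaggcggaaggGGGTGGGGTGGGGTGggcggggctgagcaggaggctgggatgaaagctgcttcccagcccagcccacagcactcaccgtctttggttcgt
A promoter was matched for 6 of the 8 genes, all but Hbb-bh1 and Nfe2. CACCC was present in 6 of these 6 windows, against 57.5% of 32851 windows in the table. The longer ACACCC, which contains CACCC, was in 3 of 6 windows (16.0% of all windows). GATAA was in 5 of 6 windows (25.4% of all), and AGATAA, which contains GATAA, in 2 of 6 (11.2% of all). CCAAT was in 2 of 6 windows (37.4% of all), and the NF-E2 core TGAGTCA was in 0 of 6 (5.20% of all). Counting the annotated start as 0, Hbb-y had GATAA on the opposite strand at -162 to -158, CACCC at -111 to -107 and CCAAT at -83 to -79. Hba-x had ACACCC at -199 to -194, GATAA at -107 to -103 and CACCC at -95 to -91. In Alas2, CACCC lay on the opposite strand 3 times in a row, beginning at -40, -35 and -30, downstream of AGATAA on the same strand at -86 to -81. These matches are a description of letters in the window, with no measurement of binding. In the gene order of the RefSeq annotation, Hbb-bh1 and Hbb-y are neighbouring protein-coding genes on chromosome 7, and Hba-x lies between Nprl3 and Hba-a1 on chromosome 11.

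The embryonic globins were far lower in all 3 reporter-positive populations than in double-negative cells, with intensities of single arrays between 1.86% and 7.47% of the double-negative array of the same experiment. Alas2 was lower by a smaller margin, and Gata1, Klf1 and Epor did not pass the test. In each of the 3 comparisons with double-negative cells, 4 of the 7 genes tested were lower and 0 were higher (limma, Benjamini-Hochberg adjusted p under 0.05 over 13698 genes). Of all genes tested, 17.6% were lower and 13.9% higher in double-positive cells. The shares were 12.7% lower and 10.9% higher in red-only cells, and 11.4% lower and 9.33% higher in green-only cells. The 4 genes were Hbb-bh1, Hbb-y, Hba-x and Alas2, and the same 4 were called in every fit that left out 1 of the 12 arrays. Nfe2 was under the filter on low values and was not tested. In sorted bulk RNA, fewer erythroid cells and less globin RNA per cell cannot be told apart.

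Hbb-bh1 had intensities of 18.5, 12.9 and 48.3 units in double-positive cells of experiments A, B and C. It had 34.9, 21.5 and 79.3 units in red-only cells, 36.6, 35.5 and 58.4 units in green-only cells, and 578, 653 and 1149 units in double-negative cells. The lowest double-negative array was thus above every reporter-positive array, and the groups did not overlap. How many of all genes separate in this way was not counted, here or for the genes below. On the log2(intensity + 4.10) scale used for all differences, the gene differed from its level in double-negative cells by -4.81 ± 0.45 in double-positive cells (SE, adjusted p = 4.07e-06). The difference was -4.12 ± 0.45 in red-only cells (adjusted p = 3.25e-05) and -4.03 ± 0.45 in green-only cells (adjusted p = 4.07e-05). Its other probe sets, 1437990_x_at and 1437810_a_at, gave -4.68 and -4.66 for double-positive against double-negative cells. In the double-negative cells Hbb-bh1 lay above 98.9% of the probe sets of each array.

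Hbb-y, the other embryonic beta-like globin, had 3.66, 3.75 and 5.47 units in double-positive cells and 6.06, 4.73 and 5.65 units in red-only cells. It had 7.23, 4.87 and 7.05 units in green-only cells and 197, 108 and 174 units in double-negative cells. On 7 of the 9 reporter-positive arrays it was below the median of its array, so its signal there was that of a dim probe set and the fold is compressed by the pseudocount. The log2 difference from double-negative cells was -4.25 ± 0.18 in double-positive cells (SE, adjusted p = 6.88e-09), -4.06 ± 0.18 in red-only cells (adjusted p = 2.70e-08) and -3.93 ± 0.18 in green-only cells (adjusted p = 2.52e-08). The reporting probe set, 1436823_x_at, carries the suffix that marks probes shared with other transcripts, so related beta-like globins may contribute to it. Of its other probe sets, 1436717_x_at gave -4.20 and 1450621_a_at gave -2.72 for double-positive against double-negative cells, and all 3 passed the test there when every probe set was tested on its own.

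Hba-x, the alpha-like partner, had 21.9, 17.7 and 33.6 units in double-positive cells and 27.4, 15.4 and 39.2 units in red-only cells. It had 26.2, 21.5 and 33.0 units in green-only cells and 438, 288 and 612 units in double-negative cells, again with no overlap. The log2 difference from double-negative cells was -3.95 ± 0.31 in double-positive cells (SE, adjusted p = 8.24e-07), -3.85 ± 0.31 in red-only cells (adjusted p = 2.81e-06) and -3.81 ± 0.31 in green-only cells (adjusted p = 2.44e-06). Hba-x was measured by a single probe set. Across the 12 arrays the log2 values of the globins correlated at 0.960 (Hbb-bh1 and Hbb-y), 0.983 (Hbb-bh1 and Hba-x) and 0.986 (Hbb-y and Hba-x), as a description of arrays that share populations and experiments.

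Alas2, the erythroid enzyme of heme synthesis, had 4.84, 5.71 and 5.32 units in double-positive cells and 4.48, 7.32 and 6.15 units in red-only cells. It had 5.21, 5.71 and 6.62 units in green-only cells and 9.33, 9.29 and 12.1 units in double-negative cells. Every double-negative array was above every reporter-positive array, but 7 of the 9 reporter-positive values were below the median of their array. The log2 difference from double-negative cells was -0.61 ± 0.11 in double-positive cells (SE, adjusted p = 0.000936), -0.51 ± 0.11 in red-only cells (adjusted p = 0.00433) and -0.52 ± 0.11 in green-only cells (adjusted p = 0.00436). Reporter-positive arrays had between 44.1% and 78.8% of the Alas2 intensity of their double-negative array. Across the 12 arrays its log2 values correlated with those of the 3 globins at 0.877 to 0.889.

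**Figure D1:**
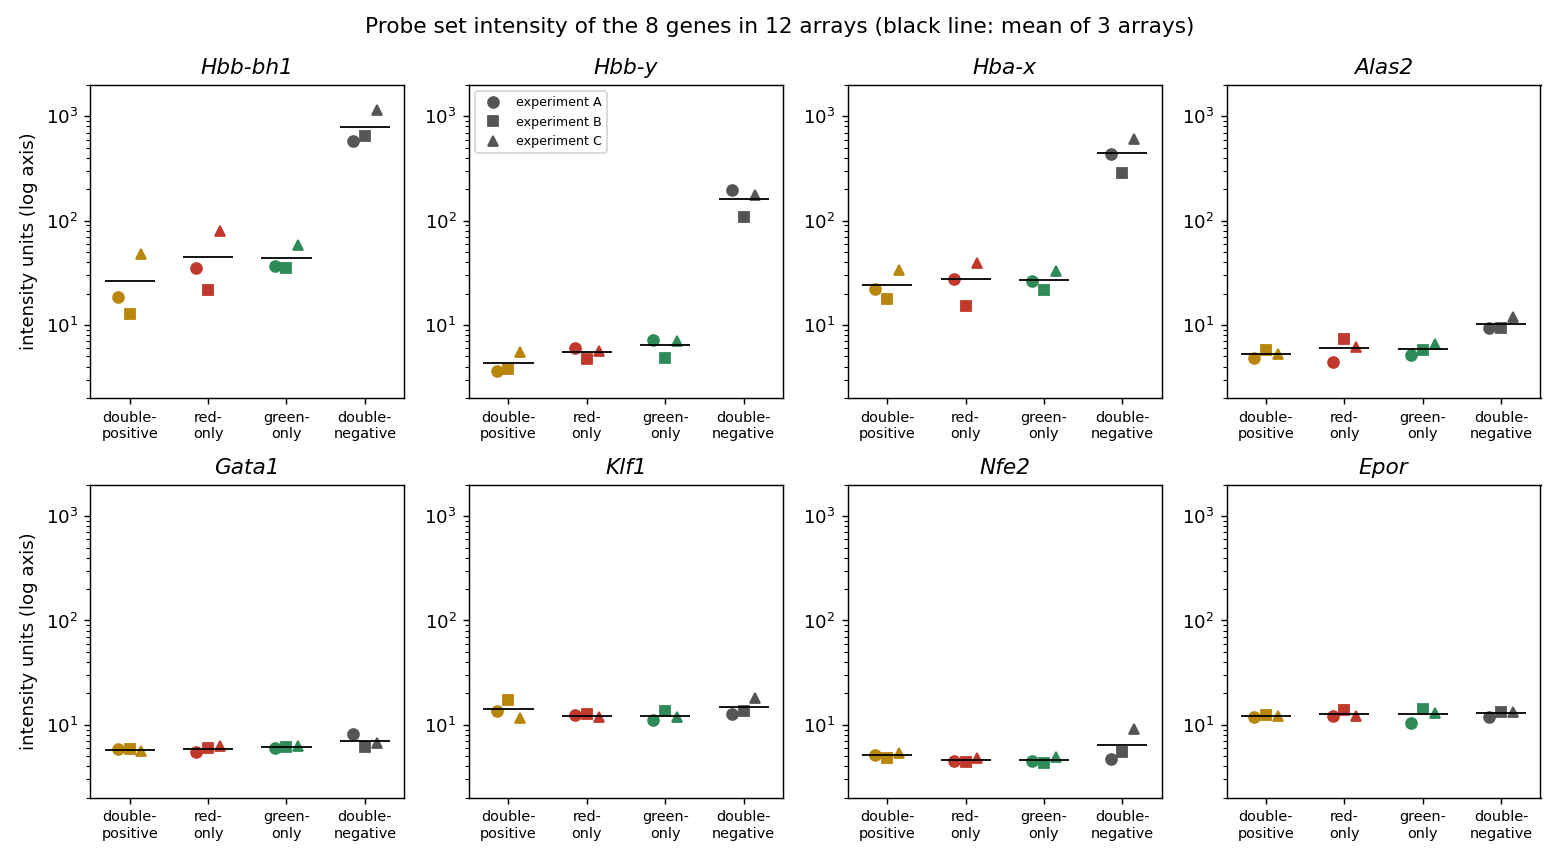
Probe set intensity (log axis) of the 8 genes in each of the 12 arrays, by population, with the marker shape giving the experiment and a black line the mean of 3 arrays. For Hbb-bh1, Hbb-y, Hba-x and Alas2 the 3 double-negative arrays lie above all 9 reporter-positive arrays, while the populations lie at like heights for Klf1 and Epor. The share of all genes separated in this way was not counted.

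The transcription factor genes Gata1 and Nfe2 were below the array median on most arrays. Gata1 had 5.93, 5.83 and 5.59 units in double-positive cells, 5.51, 5.99 and 6.25 units in red-only cells, 6.00, 6.09 and 6.25 units in green-only cells, and 8.21, 6.13 and 6.68 units in double-negative cells. It was below the median of its array on 10 of 12 arrays, and the double-negative array of experiment A was the highest. The double-positive arrays were all below the double-negative arrays, whereas the red-only and green-only arrays overlapped with them. Its log2 differences from double-negative cells were -0.16 (95% interval -0.33 to 0.0016) in double-positive cells, -0.15 (-0.31 to 0.02) in red-only cells and -0.12 (-0.28 to 0.05) in green-only cells (limma adjusted p = 0.131, 0.212 and 0.346). Nfe2 had 5.13, 4.78 and 5.35 units in double-positive cells, 4.46, 4.37 and 4.86 units in red-only cells, 4.53, 4.34 and 4.90 units in green-only cells, and 4.71, 5.49 and 9.15 units in double-negative cells. It was below the array median on 11 of 12 arrays, all but the double-negative array of experiment C.

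Klf1, which activates globin genes through CACCC motifs, had 13.5, 17.3 and 11.6 units in double-positive cells and 12.4, 12.7 and 11.8 units in red-only cells. It had 11.02, 13.5 and 12.01 units in green-only cells and 12.8, 13.4 and 18.2 units in double-negative cells. The double-positive and the double-negative arrays overlapped, with a log2 difference of -0.05 (95% interval -0.32 to 0.21, limma adjusted p = 0.807). The difference was -0.20 (-0.47 to 0.07) in red-only cells, whose 3 arrays were all below those of double-negative cells, and -0.21 (-0.48 to 0.06) in green-only cells (adjusted p = 0.305 and 0.287). Epor had 11.96, 12.4 and 12.2 units in double-positive cells, 12.1, 13.8 and 12.2 units in red-only cells, 10.4, 14.2 and 13.1 units in green-only cells, and 11.8, 13.4 and 13.4 units in double-negative cells. All 4 populations overlapped, and its log2 differences from double-negative cells of -0.06 (95% interval -0.25 to 0.14), -0.02 (-0.21 to 0.18) and -0.03 (-0.23 to 0.16) did not pass (limma adjusted p = 0.699, 0.937 and 0.868). The intervals of Klf1 and Epor thus leave room for changes of up to about -0.48 and -0.25.

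**Figure D2:**
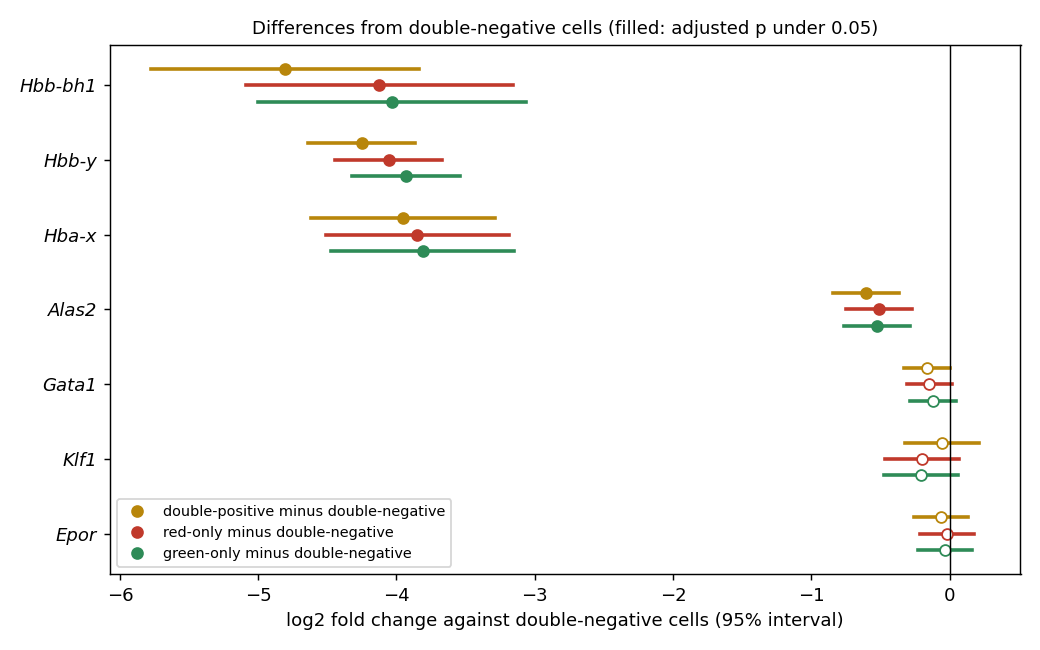
Log2 fold change of the 7 tested genes in the 3 reporter-positive populations against double-negative cells, with 95% intervals as bars and filled points for adjusted p under 0.05. The 3 globins lie between -4.81 and -3.81, Alas2 between -0.61 and -0.51, and the intervals of Gata1, Klf1 and Epor reach 0.

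Among the 3 reporter-positive populations, 0 of the 7 genes passed in any comparison of the main fit, which left the experiment out. The backgrounds were 12.1% of genes for double-positive against red-only, 5.62% for double-positive against green-only and 3.08% for red-only against green-only cells. At an unadjusted p under 0.05 the count was also 0. Hbb-bh1 had the widest differences. It differed between double-positive and red-only cells by -0.68 (95% interval -1.65 to 0.28, limma adjusted p = 0.412) and between double-positive and green-only cells by -0.77 (-1.74 to 0.19, adjusted p = 0.420). Double-positive cells were lower in 3 of 3 experiments in both comparisons, and with the experiment as a replicate block both passed (adjusted p = 0.0206 and 0.0177). Hbb-y was also lower in double-positive than in red-only and green-only cells in 3 of 3 experiments, by -0.19 (-0.58 to 0.19) and -0.32 (-0.71 to 0.07), and passed in neither fit. Hba-x differed by -0.10 (-0.77 to 0.56) and -0.14 (-0.81 to 0.52). These comparisons share arrays with one another and with those against double-negative cells.

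**Figure D3:**
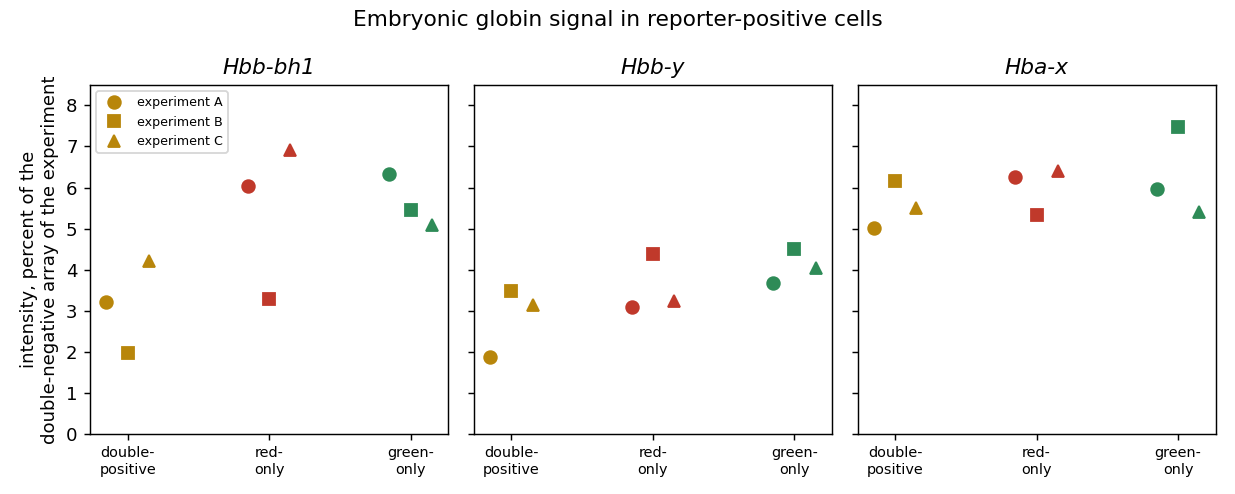
Intensity of Hbb-bh1, Hbb-y and Hba-x in each reporter-positive array as a percent of the double-negative array of the same experiment. Hbb-bh1 lies between 1.98% and 6.91%, Hbb-y between 1.86% and 4.51% and Hba-x between 5.01% and 7.47%, and the 3 populations overlap for Hba-x.

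The log2 differences that went with each reporter did not add up for the globins, and on this scale they could not have. The interaction, the double-positive minus the red-only minus the green-only plus the double-negative mean, would be 0 if the 2 log2 differences added up. It is also large wherever only the double-negative cells stand apart, so for the globins it largely repeats the differences from those cells. It was 3.35 ± 0.63 for Hbb-bh1 (SE, limma adjusted p = 0.00474), 3.74 ± 0.25 for Hbb-y (adjusted p = 9.99e-06) and 3.71 ± 0.43 for Hba-x (adjusted p = 0.000269). Of the 7 genes, 3 were called higher in this test, against 4.80% of all genes. For Alas2 the interaction was 0.43 ± 0.16 (adjusted p = 0.105, and 0.0427 with the replicate block). Hbb-y and Alas2 were each below the array median on 7 of the 9 reporter-positive arrays, and the part of this in the interaction was not tested.

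The globins also differed between experiments, in a test added after the data were seen, with the population in the model. Hba-x was higher in experiment C than in B by 0.89 and than in A by 0.44 (limma F-test, adjusted p = 0.00450). Hbb-bh1 was higher in C than in B by 1.20 and than in A by 0.98 (adjusted p = 0.00697). Of all genes, 2.42% passed this test. Hbb-y had an adjusted p of 0.142, and Gata1, Klf1, Alas2 and Epor lay between 0.278 and 0.882.

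Of 10 other globin genes 3 had a probe set annotated to a single gene, and probe sets annotated to several genes were not used here. Hba-a2, an adult alpha globin, averaged 54.4 ± 5.77 units in double-positive cells, 60.6 ± 15.2 in red-only cells, 53.1 ± 16.5 in green-only cells and 56.3 ± 17.7 in double-negative cells (SD, n = 3 each). Its log2 differences from double-negative cells of -0.01, 0.12 and -0.08 did not pass. Hbb-b2 and Hba-a1, also adult globins, were below the array median on all 12 arrays. So were Slc4a1 (the red cell anion exchanger), Epb42 and Rhag of the red cell membrane, and Car1 of the red cell enzymes.

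Other erythroid genes were described by list. Beside these counts, 17.6% of all genes were lower and 13.9% higher in double-positive cells. The shares were 12.7% and 10.9% in red-only cells, and 11.4% and 9.33% in green-only cells. Of 23 tested erythroid transcription factors and cofactors, 3 were lower and 4 higher in double-positive cells, 1 lower and 7 higher in red-only cells, and 1 lower and 6 higher in green-only cells. With every array left out in turn, 2, 1 and 1 of the lower and 3, 4 and 1 of the higher calls held, and with the replicate block 5, 2 and 1 genes were lower and 5, 9 and 7 higher. Median differences were -0.01, 0.18 and 0.04, and over all genes -0.01, -0.02 and -0.01. Myb, a regulator of definitive blood progenitors, fell by 1.86 in double-positive cells, 1.69 in red-only cells and 1.96 in green-only cells. It averaged 4.72 ± 0.214, 5.78 ± 0.174 and 4.10 ± 0.252 units there, against 28.4 ± 7.24 units in double-negative cells (SD, n = 3 each). These reporter-positive values were below the array medians, so the sizes of the Myb differences depend on signal at the dim end of the arrays. Lmo2, a bridging cofactor of the Tal1 complex, rose by 1.56, 1.74 and 0.99, and in green-only cells it lost the call without green-only B, green-only C or double-negative A (adjusted p up to 0.0801). Zfpm1, the Gata1 cofactor FOG-1, rose by 0.78, 1.28 and 0.90. Tal1, which is needed to form blood, rose by 0.86 in red-only cells and 0.81 in green-only cells, and differed by 0.20 in double-positive cells (adjusted p = 0.628). Leaving out single arrays ended the Tal1 calls, with adjusted p up to 0.103 without double-negative A, double-negative B or red-only B, and up to 0.133 without green-only B, green-only C or any double-negative array.

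Of 20 heme synthesis and iron genes, 4 were lower and 5 higher in double-positive cells, 2 and 1 in red-only cells, and 1 and 1 in green-only cells. The red-only and green-only counts were below the shares over all genes, and the 4 lower in double-positive cells were near that share. Alad, the second enzyme of the heme pathway, fell by 0.59 in double-positive cells, and Slc25a28, a mitochondrial iron importer, by 0.43. Tfrc, the transferrin receptor, rose by 0.54 and Alas1, the housekeeping counterpart of Alas2, by 0.47 in double-positive cells. In red-only cells Tfrc fell by 0.29 (adjusted p = 0.0395), a call that was lost without any 1 of red-only A, red-only B, red-only C, green-only C, double-negative B or double-negative C (adjusted p up to 0.139). The calls of Alad, Slc25a28, Tfrc and Alas1 in double-positive cells were kept with every array left out in turn, whereas in red-only cells 0 of 3 calls were, and in green-only cells 1 of 2 (Hmox2, higher). With the replicate block the counts were 4 lower and 6 higher in double-positive cells, 2 and 2 in red-only cells, and 3 and 2 in green-only cells.

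Of 14 erythropoietin and stem cell factor signalling genes, 3 were lower and 5 higher in double-positive cells, 1 and 5 in red-only cells, and 2 and 3 in green-only cells. Socs2, a feedback inhibitor of cytokine signalling, fell by 1.42, 1.33 and 1.30. Socs3, another such inhibitor, rose by 0.87, 1.64 and 1.04. Kit, the stem cell factor receptor, fell by 0.88 in double-positive cells. With every array left out in turn, 2, 1 and 1 of the lower and 2, 3 and 3 of the higher calls held.

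Of 15 red cell membrane and skeleton genes, 1 was lower and 3 higher in each comparison. Tmod1, a capping protein of actin filaments that heart muscle also uses, rose by 3.49 in double-positive cells, 1.45 in red-only cells and 2.30 in green-only cells. The other higher genes were Cd44 and Add1, and the lower one was Sptb, red cell beta-spectrin. The Sptb call held with every array left out only in red-only cells, and the 3 higher calls held in each comparison. With the mean of all probe sets of a gene, the Sptb call was lost in each comparison. Of 14 red cell enzymes and chaperones, 4 were lower and 0 higher in double-positive cells, 4 and 1 in red-only cells, and 3 and 0 in green-only cells. With every array left out in turn, 3, 1 and 1 of the lower calls held. Car2, a carbonic anhydrase, fell by 2.23 in double-positive and 1.32 in red-only cells. In green-only cells it differed by -0.59 (adjusted p = 0.173), and it passed there without green-only A.

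**Figure D4:**
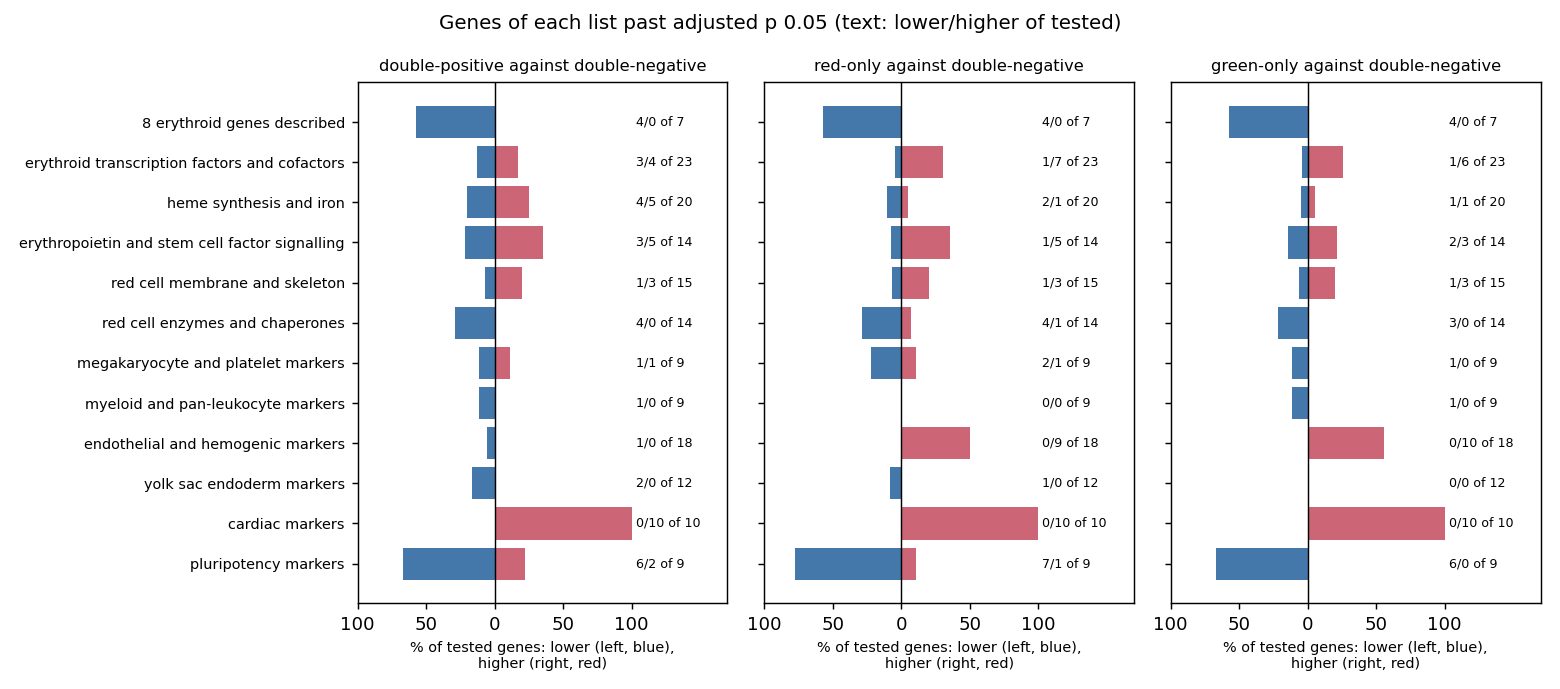
Percent of the tested genes of 12 lists that were lower (left, blue) or higher (right, red) than in double-negative cells at adjusted p under 0.05, with counts written beside the bars. The 8 described genes have 4 lower of 7 in each panel. The transcription factor list has more higher than lower genes in the red-only and green-only panels. In the double-positive panel it has 3 lower and 4 higher of 23, and 5 and 5 with the replicate block. Over all genes 17.6% were lower and 13.9% higher in that comparison.

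Most pluripotency markers moved with the globins and the cardiac markers moved against them, and their part in the result was not tested. The summed intensity of 9 pluripotency markers was 297 to 357 units in double-positive cells, 162 to 226 in red-only cells and 205 to 241 in green-only cells, against 1500 to 1787 in double-negative cells. Of these 9 genes, 6 were lower and 2 higher in double-positive cells, 7 and 1 in red-only cells, and 6 and 0 in green-only cells. The higher genes were Tdgf1 and Klf4 in double-positive cells and Klf4 in red-only cells, and Tdgf1 was among the lower genes in red-only cells. With every array left out in turn, 5, 6 and 5 of the lower calls and 1, 0 and 0 of the higher calls held, Tdgf1 in double-positive cells being the higher one that did. In green-only cells 1 gene was called higher without green-only A and with the replicate block. Pou5f1, the pluripotency factor Oct4, fell by 4.22, 3.97 and 3.96. All 10 cardiac markers were higher in each comparison, with sums of 19223 to 23853 units in double-positive cells, 4035 to 5880 in red-only cells, 9969 to 12555 in green-only cells and 440 to 630 in double-negative cells. The sum of the 8 erythroid genes was 80.4 to 127, 85.7 to 165 and 106 to 141 units in the reporter-positive populations, against 1096 to 1995 in double-negative cells. Most of it came from the globins, with double-negative means of 793 (Hbb-bh1), 446 (Hba-x) and 160 (Hbb-y) units. Klf1 and Epor averaged 14.8 and 12.9 units there and 14.1 and 12.2 units in double-positive cells.

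Endothelial and hemogenic markers did not follow the globins. Of 18 genes, 1 was lower (Sox17) and 0 higher in double-positive cells, 9 were higher in red-only cells and 10 in green-only cells. With every array left out in turn, 0 of the lower and 6 and 7 of the higher calls held, and with the replicate block 15 were higher in green-only cells. Without green-only A, the array farthest from its group, 16 were higher there. Kdr, a VEGF receptor of blood and vessel precursors, rose by 1.83 in red-only cells and 1.70 in green-only cells. Etv2, a factor of hemato-endothelial mesoderm, rose by 1.80 in red-only cells. Their sums were 427 to 583 units in double-positive cells, 949 to 1192 in red-only cells, 667 to 1396 in green-only cells and 377 to 528 in double-negative cells.

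Most markers of other blood cells did not pass the test. Of 16 myeloid and pan-leukocyte markers, 6 were below the array median on all arrays, among them Ptprc (CD45), Mpo and Itgam. Of 9 tested, 1 was lower in double-positive cells (Cd68, by -0.38), 0 in red-only cells and 1 in green-only cells (Fcer1g, by -0.27, not passing without green-only B, green-only C, double-negative A or double-negative B), and 0 were higher. Sums were 119 to 128, 114 to 123 and 116 to 124 units in the reporter-positive populations and 125 to 133 in double-negative cells. Of 9 megakaryocyte and platelet markers, Pf4 fell by 0.45, 0.35 and 0.39, Itgb3 rose by 1.40 in double-positive cells and Clec1b rose by 1.75 in red-only cells. Itga2b was lower in red-only cells by -0.50, not passing without red-only A, red-only B, double-negative B or double-negative C. Of 12 yolk sac endoderm markers, 2 were lower in double-positive cells (Foxa2, and Sox17, which the endothelial list shares). In red-only cells 1 was lower and in green-only cells 0, and with the replicate block the counts were 7, 6 and 0. With every array left out in turn 1, 0 and 0 of the calls made without the block held. Their sums ran from 175 to 382 units in double-positive cells, 177 to 393 in red-only cells, 407 to 2226 in green-only cells and 342 to 1222 in double-negative cells.

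**Figure D5:**
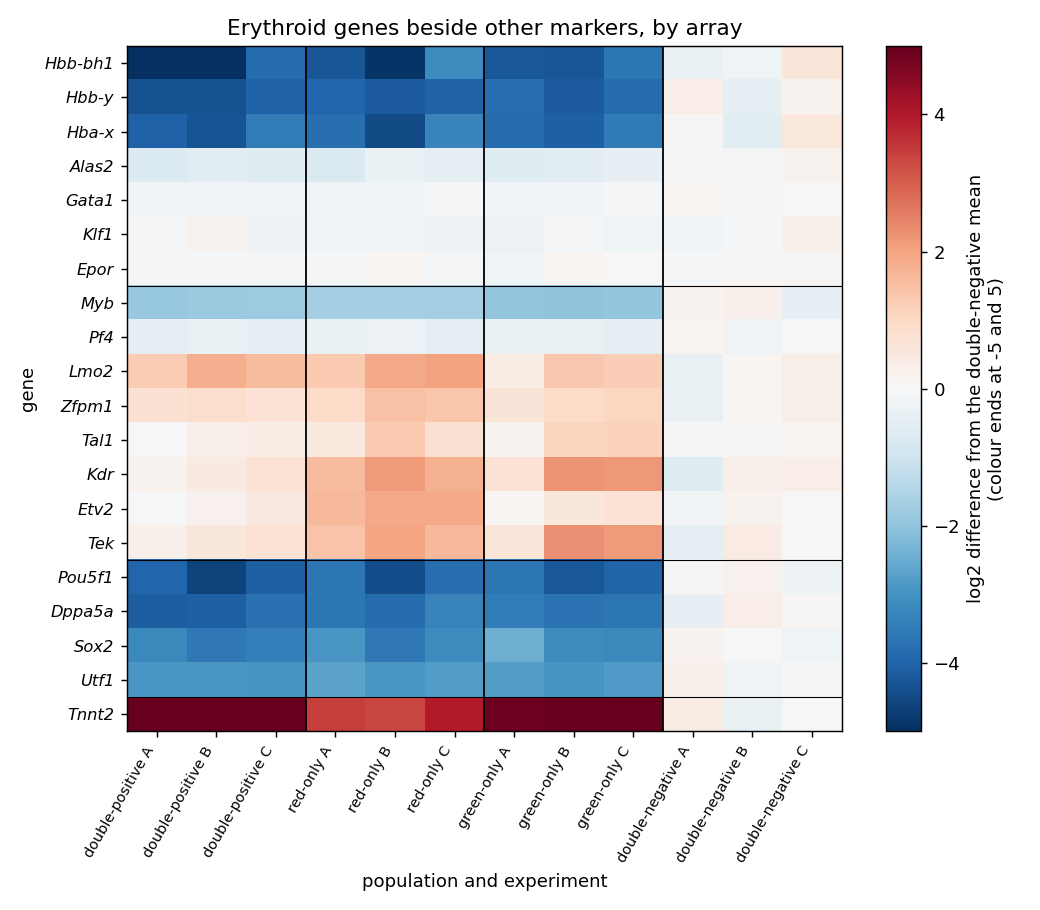
Log2 difference of each array from the double-negative mean, for 7 erythroid genes and other markers, with colour ending at -5 and 5. The embryonic globins, Myb and the 4 pluripotency genes drawn (Pou5f1, Dppa5a, Sox2 and Utf1) are low on all 9 reporter-positive arrays, whereas Lmo2 and Zfpm1 are high there.

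The genes whose log2 values were most like the mean of the 3 standardised globins over the 12 arrays were Slc35f2 (Pearson r = 0.989), Ruvbl2 (0.988), Gart (0.983), Dppa5a (0.983), Ipo5 (0.982), Utf1 (0.980), Pim2 (0.980) and Fgf15 (0.979). Those most like Klf1 were Psmd1 (0.872), Spata2l (0.855), Mixl1 (0.854), Gm31881 (0.834) and Gm4792 (0.810). Klf1 itself correlated with the globins at 0.277 to 0.364 and Epor at 0.113 to 0.174, whereas Gata1 correlated with them at 0.663 to 0.745. These values describe arrays that share populations and experiments.

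The array medians lay between 6.29 and 6.73 units and single values between 2.09 and 8820, and an array has no read depth, so the 3 arrays per population limit the precision. Ratios of 3' to 5' actin probe sets were 1.40 to 1.55 in double-positive cells, 1.32 to 1.48 in red-only cells, 1.33 to 1.44 in green-only cells and 1.34 to 1.36 in double-negative cells.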

How the data were processed

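Per the labels, total RNA (5 ug per array) was hybridised to 12 arrays. The deposited values are linear intensities, 1 per probe set and array, and the submitters' processing notes name MAS5, with no version or scaling target. Populations were taken from sample titles, since the description of the sort misprints 1 of them.

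Of 45101 probe sets, 64 controls, 932 with several genes and 9160 with none were left out, which left 34945 with 1 gene. Symbols were updated through Entrez IDs, except 204. Values were used as log2(intensity + 4.10), the 25th percentile, with no other normalization. A filter at the 40th percentile of mean values (3.22) kept 13698 genes. Fits used all 12 arrays and limma 3.58.1 in R 4.3.3 (8 residual degrees of freedom), two-sided except F-tests, with Benjamini-Hochberg adjustment over all genes and a threshold of 0.05. Figures used matplotlib 3.10.9 in Python 3.11.15. In simulated double-positive against double-negative data with 200 changed genes among 13698, 99.2% at a log2 change of -1 and 100% at -4 were recovered. The simulated noise was independent between arrays, with no experiment effect, and the changed genes were drawn at random. These shares therefore do not give the power for a gene as variable as Hbb-bh1 (SE 0.45).

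Deviations from group means correlated at 0.116 to 0.424 in all 18 pairs of arrays of the same experiment letter, so the letters pair the arrays. The main fits left this pairing out, so their SEs also hold the spread between experiments, and the experiment as a replicate block was an alternative. Other alternatives were pseudocounts of 1 and 6.52, quantile normalization, other filters, other probe set choices, an intensity trend, only the 6 arrays compared, and each array left out. The genes and lists were chosen with earlier results of these data known. Named from each list were up to 4 genes with the largest change past the threshold against double-negative cells, and for likeness the 8 genes nearest the globin mean and the 5 nearest Klf1. Other genes named as below the array median, or to account for a count of 5 or fewer, were chosen after their values were seen. Promoters came from RefSeq.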

Additional observations from a re-analysis of the deposited data

Results flagged for a closer look

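The interaction was called higher for the 3 embryonic globins in limma. It is also large wherever only the double-negative cells stand apart, and for the globins it largely repeats the differences from those cells. It therefore cannot decide whether the difference that goes with a reporter depends on the other reporter. The interaction was 3.35 on the log2 scale for Hbb-bh1, 3.74 for Hbb-y and 3.71 for Hba-x (adjusted p = 0.00474, 9.99e-06 and 0.000269). It kept its call in all 21 alternatives for each of the 3 genes. These alternatives reuse the same arrays and the same contrast, so they cannot decide this either. Values ran from 2.88 to 3.82, 3.37 to 4.11 and 3.40 to 3.99.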

How the results depend on the processing

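Calls of Hbb-bh1, Hbb-y, Hba-x and Alas2 against double-negative cells held in all alternatives run (22 for each globin, 21 for Alas2). For double-positive cells the values ran from -5.28 to -4.47, -4.90 to -3.72, -4.23 to -3.69 and -0.83 to -0.50. With the replicate block 1 gene, Hbb-bh1, was called lower in double-positive than in red-only and 1, the same gene, than in green-only cells, and the Alas2 interaction passed. The block changed no other call of the 8 genes. Over all genes, double-positive against double-negative cells had 4317 called genes, and 6611 called probe sets when each was tested on its own. For double-positive against green-only cells, 770 genes became 258 with only the 6 arrays compared and 1282 with the block. They ran from 357 (without double-positive A) to 775 with arrays left out, and came to 473 without double-positive B. For red-only against green-only cells, 422 became 199 with only the 6 arrays and 789 with the block. They ran from 202 (without red-only B) to 475, and came to 208 without red-only A. Leaving out single arrays turned the sign of differences near 0 that had not passed. For double-positive against double-negative the values ran from -0.18 to 0.0715 for Klf1. For red-only against double-negative the values ran from -0.0644 to 0.00936 for Epor. For green-only against double-negative the values ran from -0.11 to 0.0659 for Epor. For double-positive against red-only the values ran from -0.41 to 0.16 for Hba-x, -0.0485 to 0.00487 for Gata1, -0.21 to 0.0013 for Alas2 and -0.0684 to 0.00533 for Epor. For double-positive against green-only the values ran from -0.36 to 0.0322 for Hba-x and -0.12 to 0.0471 for Epor. For red-only against green-only the values ran from -0.56 to 0.29 for Hbb-bh1, -0.31 to 0.27 for Hba-x, -0.0525 to 0.000816 for Gata1, -0.041 to 0.0676 for Klf1, -0.0834 to 0.12 for Alas2 and -0.082 to 0.0901 for Epor. For the interaction the values ran from -0.11 to 0.0632 for Epor. For experiment C minus B the values ran from -0.0201 to 0.0439 for Gata1, -0.20 to 0.0252 for Klf1 and -0.0182 to 0.12 for Alas2. The cause was not tested. Of the counts of list genes under the alternatives, 1400 stayed within 1.5 times and 184 did not. Signal near the dim end of the arrays limits Hbb-y, Alas2, Gata1, Nfe2 and, in reporter-positive cells, Myb, Pf4 and Cd68.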
